A study of Mus musculus with 6 samples.

Results

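Nicotinamide adenine dinucleotide (NAD) metabolism was followed in brown adipose tissue (BAT) through 10 genes: the NAD synthesis genes Nampt, Nmnat1 and Nmnat3, the NAD kinase gene Nadk2, the transhydrogenase gene Nnt, the sirtuin genes Sirt1, Sirt3 and Sirt5, the NAD glycohydrolase gene Cd38 and the nicotinamide methyltransferase gene Nnmt. They were taken by gene symbol from the 23282 rows of the count files, and all 10 were among the 12995 genes that passed the filter on low counts. BAT RNA was sequenced from 3 wild-type and 3 Letmd1 KO male mice, all C57BL/6N and 5 weeks old, with no treatment named. The Letmd1 KO mice are described as homozygous for a null allele made from a knockout-first embryonic stem cell clone, in which a lacZ and neomycin cassette sits in an intron of Letmd1. The allele is in the whole body and comes from 1 clone, so a change in BAT RNA can arise in any cell of the tissue or follow from other organs. C57BL/6N mice are known to carry an intact Nnt, whereas C57BL/6J mice lack several internal exons of it. The reads come from the 3′ ends of transcripts, outside those exons, so the Nnt counts check nothing about that deletion.

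NAD carries electrons from fuel oxidation to complex I of the respiratory chain, and its phosphorylated form NADP supplies reducing power for antioxidant defence and lipid synthesis. Most NAD is rebuilt from nicotinamide: NAMPT makes nicotinamide mononucleotide, and the NMNAT enzymes turn it into NAD, NMNAT1 in the nucleus and NMNAT3 in mitochondria. NAD kinases make NADP, in the cytosol (NADK) and in mitochondria (NADK2), and NNT uses the proton gradient of the inner mitochondrial membrane to make NADPH from NADH. Sirtuins remove acyl groups from proteins and consume NAD. SIRT1 acts mainly in the nucleus, and SIRT3, SIRT4 and SIRT5 in mitochondria. CD38 breaks NAD down, largely at cell surfaces, and NNMT methylates nicotinamide and so takes it out of the salvage route. BAT is rich in mitochondria, and the NAD pool there feeds the oxidation that drives heat production.

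The libraries held between 6669577 and 14574273 counts. The TMM scaling of edgeR assigned them factors of 0.852 to 0.886 (wild type) and 1.13 to 1.17 (Letmd1 KO). Values are given as counts brought to a common library size (CPM) with this scaling. A count of 0 allows up to 3 counts, or 0.176 to 0.396 CPM, for counting error only. Letmd1 counts were 5658, 6490 and 5266 for wild type and 0, 0 and 1 for Letmd1 KO, so that all 6 mice matched their genotype labels. The summed level of 6 brown adipocyte markers, among them Ucp1 and Cidea, was between 11150 and 12130 CPM in wild-type and between 1393 and 2482 CPM in Letmd1 KO mice, and that of 6 general adipocyte markers was between 36520 and 41320 and between 17710 and 23090 CPM. Most of the general adipocyte sum was Fabp4, with means of 28020 and 10460 CPM. Adipoq, Plin1 and Cidec were lower too. Lpl (means of 6376 and 7621 CPM) and Pparg (516 and 457 CPM) overlapped between genotypes. The 10 macrophage markers summed to between 163 and 234 CPM in wild-type and between 974 and 1548 CPM in Letmd1 KO mice, and the 7 fibroblast and progenitor markers to between 1345 and 1874 and between 3806 and 6550 CPM. Letmd1 KO replicate 2 held the highest sum of both lists. Skeletal muscle markers differed among mice of a genotype, with sums of 5.07, 364 and 3.13 CPM in wild-type and 394, 280.4 and 1138 CPM in Letmd1 KO mice. In RNA of whole tissue, fewer cells of a type and less RNA per cell cannot be told apart.

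The promoter windows of 4 of the genes are shown, because Nampt, Sirt3 and Sirt5 fell together in Letmd1 KO BAT while Sirt1 was not called. Each window runs from 250 bases before to 50 bases after a transcript start (RefSeq, GRCm38.p6), 5′ to 3′ on the strand of the gene, and capitals mark the E-box CACGTG, the binding motif of the clock factors CLOCK and BMAL1 and of MYC.
Nampt, chr12:32820085-32820384, plus strand: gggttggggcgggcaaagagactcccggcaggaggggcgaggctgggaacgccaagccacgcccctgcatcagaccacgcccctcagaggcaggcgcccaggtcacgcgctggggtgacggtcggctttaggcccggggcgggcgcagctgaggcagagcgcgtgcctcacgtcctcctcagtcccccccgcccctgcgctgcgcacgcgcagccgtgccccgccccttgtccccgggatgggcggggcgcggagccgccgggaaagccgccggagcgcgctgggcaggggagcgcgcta
Sirt1, chr10:63338986-63339285, minus strand: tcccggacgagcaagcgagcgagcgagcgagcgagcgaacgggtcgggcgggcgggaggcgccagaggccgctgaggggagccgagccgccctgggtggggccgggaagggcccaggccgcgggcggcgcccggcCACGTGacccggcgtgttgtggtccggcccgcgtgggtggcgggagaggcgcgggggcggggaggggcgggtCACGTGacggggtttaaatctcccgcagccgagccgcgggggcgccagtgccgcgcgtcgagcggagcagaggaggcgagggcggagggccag
Sirt3, chr7:140882260-140882559, minus strand: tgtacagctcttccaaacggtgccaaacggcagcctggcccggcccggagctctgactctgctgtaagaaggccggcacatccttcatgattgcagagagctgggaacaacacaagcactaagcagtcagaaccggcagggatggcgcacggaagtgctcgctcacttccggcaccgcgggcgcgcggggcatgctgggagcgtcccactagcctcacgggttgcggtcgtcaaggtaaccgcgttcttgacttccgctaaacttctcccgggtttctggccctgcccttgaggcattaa
Sirt5, chr13:43365285-43365584, plus strand: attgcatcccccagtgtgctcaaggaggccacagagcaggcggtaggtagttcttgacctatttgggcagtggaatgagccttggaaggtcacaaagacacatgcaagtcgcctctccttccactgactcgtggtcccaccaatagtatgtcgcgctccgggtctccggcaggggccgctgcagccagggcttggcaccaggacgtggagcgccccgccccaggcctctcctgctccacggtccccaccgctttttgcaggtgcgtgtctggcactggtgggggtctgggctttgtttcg
The search covered both strands for the E-box, which reads the same on both, for the ATF4 composite element TGATGNAA and for the ERR element TNAAGGTCA, the motif of the estrogen-related receptors that act on mitochondrial genes. Of all 32851 promoter windows, 7.15% held the E-box, 3.97% the ATF4 composite element and 1.28% the ERR element. Windows were given for 7 of the 10 genes (Nampt, Nmnat1, Nmnat3, Sirt1, Sirt3, Sirt5 and Cd38), with 2 windows each for Nmnat1 and Sirt3. Of these 9 windows, that of Sirt1 held 2 E-boxes, starting 115 and 43 bases before the transcript start, and the others held none of the 3 motifs, so no matches overlapped. A match is a run of letters, not a shown binding site. The windows of Nampt and Sirt1 were rich in G and C, at 76.3% and 79.0%, against a median of 52.7% over all windows, while that of Cd38 had 51.7%.

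Loss of Letmd1 went with lower Nampt, Nadk2, Sirt3 and Sirt5 and with higher Nnmt and Nnt, at an adjusted p under 0.05 (quasi-likelihood test of edgeR, Benjamini-Hochberg adjustment over all genes tested). Nmnat1, Nmnat3, Sirt1 and Cd38 did not pass. The background was 22.3% lower and 23.7% higher among all genes tested. On the log2 scale, the 10 genes had a median fold change (Letmd1 KO minus wild type) of -0.36, against 0.033 for all genes tested. The genotypes did not overlap for 7 of the 10 genes, against 57.3% of all genes tested. Library size alone, without TMM factors, placed 10.5% of all genes lower and 45.4% higher. The share of calls that were higher moved from 51.6% to 81.2%, and the median of all genes moved to 0.45. The same 4 of the 10 genes were then lower, and Nmnat3 joined Nnmt and Nnt as higher. After quantile normalization with limma, the normalization that the study's methods name, 23.7% of all genes were lower and 20.9% higher. Nmnat1 then joined the 4 lower genes (log2 fold change -1.26, adjusted p = 0.0107 from limma), and Nnt no longer passed (0.66, adjusted p = 0.0711 from limma).

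**Figure D1:**
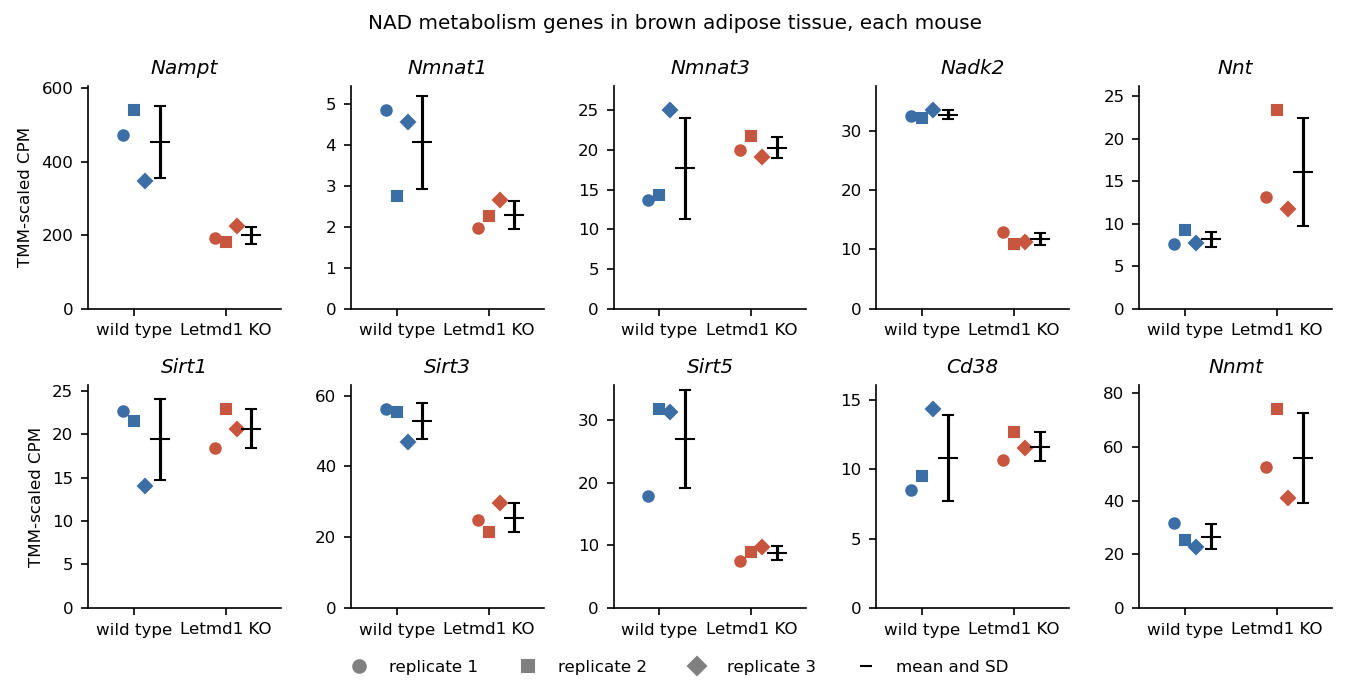
TMM-scaled CPM (y axis, from 0, its own scale in each panel) of the 10 genes in each of 3 wild-type and 3 Letmd1 KO mice, with the marker shape giving the replicate number and the bar giving mean and SD. Nadk2 shows the tightest groups, at 32.1 to 33.5 CPM in wild-type and 10.98 to 12.9 CPM in Letmd1 KO mice, while the Letmd1 KO values of Nnt and Nnmt are spread by replicate 2.

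Nampt, the rate-limiting gene of the salvage route, was the most abundant of the 10 genes by 3′-end CPM, a scale that needs no division by transcript length because each transcript is read at its end. The gene spans 32819545 to 32853349 of chromosome 12, plus strand (GENCODE vM21, GRCm38, the build also called mm10 that the submitters' processing notes name). Nampt stood at 473, 541 and 348 CPM in wild type and at 194, 180 and 225 CPM in Letmd1 KO. Every Letmd1 KO mouse lay below every wild-type mouse, and the wild-type mice differed more among themselves than the Letmd1 KO mice did. The log2 fold change was -1.19 (standard error 0.17, adjusted p = 0.00046, edgeR), and 899 of the 12995 genes tested had a more negative value. Nampt shares 5033 bases on the same strand with the noncoding gene Gdap10, outside the last 500 bases of Nampt. Gdap10 was at 61.4 ± 4.17 CPM in wild-type and 26.2 ± 6.91 CPM in Letmd1 KO BAT (SD, n = 3 each; adjusted p = 0.000638, edgeR).

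The adenylyltransferase genes, which complete NAD, were much less abundant than Nampt. A further one outside the 10 genes, Nmnat2, was too low to be tested. It had 0 counts in every wild-type mouse and 7, 9 and 17 in Letmd1 KO mice, and is named after its values were seen. Nmnat1, on the minus strand of chromosome 4 from 149467572 to 149485202, had only 45, 26 and 35 counts in wild-type and 18, 17 and 45 in Letmd1 KO mice, which is 4.85, 2.76 and 4.56 against 1.98, 2.25 and 2.65 CPM. The groups did not overlap, but the nearest values of both genotypes differed by little. The log2 fold change was -0.80 with a 95% interval from -1.59 to -0.021 and did not pass after adjustment (adjusted p = 0.0868, edgeR). It passed without wild-type replicate 2 (-1.04, adjusted p = 0.0484, edgeR). Nmnat3, the mitochondrial isoenzyme, spans 98287435 to 98420438 of chromosome 9, plus strand, and had 13.7, 14.3 and 25.0 CPM in wild-type and 20.0, 21.7 and 19.1 CPM in Letmd1 KO mice. Wild-type replicate 3 lay above all Letmd1 KO mice and the other wild-type mice below them. Its log2 fold change was 0.20 (95% interval from -0.32 to 0.72, adjusted p = 0.514, edgeR), and without wild-type replicate 3 it was 0.52 and passed (adjusted p = 0.0289, edgeR). Within a mouse, the ratio of Nmnat3 to Nmnat1 counts was 2.80, 5.11 and 5.42 in wild-type and 9.86, 9.40 and 7.13 in Letmd1 KO mice. This ratio did not overlap between genotypes, although neither gene was called. The log2 difference was 1.03 (two-sided exact permutation test, p = 0.1, the smallest that 3 mice against 3 allow; adjusted p = 0.117 over 7 such ratios). Of single genes tested, 57.3% did not overlap, and the share over all gene pairs was not computed.

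Nadk2, the mitochondrial NAD kinase gene, had the smallest adjusted p of the 10 genes. Wild-type mice had 32.45, 32.1 and 33.5 CPM and Letmd1 KO mice 12.9, 10.98 and 11.3 CPM. Mice of a genotype were nearly alike and the genotypes far apart, with means of 32.7 ± 0.725 and 11.7 ± 1.004 CPM (SD, n = 3 each), a level 2.79 times as high in wild type. The log2 fold change was -1.48 (standard error 0.14, adjusted p = 3.97e-05, edgeR). Nadk2 spans 9071260 to 9110891 of chromosome 15, plus strand. Letmd1 is on the same chromosome, 91.4 Mb away. The cytosolic kinase gene Nadk was lower as well, from 207 ± 12.4 to 134 ± 5.39 CPM (SD, n = 3 each; log2 fold change -0.63, adjusted p = 0.000891, edgeR), a call not made on library size alone. The ratio of Nadk2 to Nadk counts within a mouse was 0.154, 0.148 and 0.174 in wild-type and 0.0920, 0.0830 and 0.0873 in Letmd1 KO mice. These ratios do not depend on library scaling, did not overlap, and differed by -0.86 on the log2 scale (exact permutation p = 0.1, adjusted p = 0.117).

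Nnt, the other mitochondrial gene of NADPH supply, was higher rather than lower. It lies on the minus strand of chromosome 13 from 119335448 to 119408997, where the annotation lists 2 entries under the same symbol. Its counts were 71, 87 and 59 in wild-type and 120, 177 and 199 in Letmd1 KO mice, which is 7.65, 9.22 and 7.69 against 13.2, 23.4 and 11.7 CPM. All Letmd1 KO mice lay above all wild-type mice, and replicate 2 stood well above the other Letmd1 KO mice. The log2 fold change was 0.96 (standard error 0.28, adjusted p = 0.0193, edgeR). Without Letmd1 KO replicate 2 it was 0.60 and no longer passed (adjusted p = 0.0519, edgeR), nor did it pass without wild-type replicate 1 (0.90, adjusted p = 0.0588, edgeR) or with the mean level of muscle markers as a covariate (0.96, adjusted p = 0.135, edgeR). The same mouse held the highest macrophage and fibroblast marker sums, and the part of these cells in the Nnt counts was not tested. Within a mouse, Nnt had 0.237, 0.288 and 0.231 times the counts of Nadk2 in wild-type and 1.03, 2.13 and 1.04 times in Letmd1 KO mice. Both genes had about equal counts in Letmd1 KO replicates 1 and 3, and Nnt exceeded Nadk2 clearly in replicate 2 alone. The change in this ratio was the largest of the 7 differences, at 2.39 on the log2 scale (exact permutation p = 0.1, adjusted p = 0.117).

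Among the 3 sirtuin genes, the mitochondrial Sirt3 and Sirt5 were lower and the nuclear Sirt1 was not called. Sirt5, which encodes a desuccinylase, had the most negative change of the 10 genes. The gene spans 43365496 to 43395203 of chromosome 13, plus strand, and had 17.9, 31.8 and 31.3 CPM in wild-type and 7.58, 8.87 and 9.76 CPM in Letmd1 KO mice. Wild-type replicate 1 was the lowest of its group and still lay above every Letmd1 KO mouse. The log2 fold change was -1.62 (standard error 0.24, adjusted p = 0.000582, edgeR), and 420 of the 12995 genes tested had a more negative value.

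Sirt3, which encodes the main mitochondrial deacetylase, lies on the minus strand of chromosome 7 from 140863666 to 140882309. Sirt3 stood at 56.2, 55.2 and 46.8 CPM in wild type and at 24.95, 21.6 and 29.8 CPM in Letmd1 KO. The groups were well apart, and the log2 fold change was -1.05 (standard error 0.15, adjusted p = 0.00054, edgeR). Both ends of Sirt3 overlap an antisense neighbour. Whether the authors counted by strand is not given in the sources used here, so reads of the shared bases cannot be told apart. The same holds, away from the 3′ ends, for Sirt1 with Gm16145, Nmnat1 with Tmem274 and Cd38 with Gm16015. At its 3′ end Sirt3 shares 707 bases, including all of the last 500, with Ric8a, which is listed as Ric8. Ric8 was at 43.7 ± 2.26 and 39.0 ± 2.47 CPM (SD, n = 3 each), with a log2 fold change of -0.16 that did not pass (adjusted p = 0.289, edgeR). At its 5′ end Sirt3 shares 342 bases with the proteasome gene Psmd13, which was at 152 ± 5.02 and 141 ± 5.15 CPM (SD, n = 3 each) with a log2 fold change of -0.10 (adjusted p = 0.411, edgeR). These neighbours were chosen by position, after the values of Sirt3 were seen.

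Sirt1 lies on the minus strand of chromosome 10 from 63319005 to 63381704. It had 22.6, 21.5 and 14.1 CPM in wild-type and 18.5, 22.9 and 20.6 CPM in Letmd1 KO mice, and the genotypes overlapped. Its log2 fold change was 0.083 (95% interval from -0.36 to 0.53, adjusted p = 0.758, edgeR), and its sign turned without wild-type replicate 3 (-0.11). The ratio of Sirt3 to Sirt1 counts was 2.48, 2.56 and 3.31 in wild-type and 1.35, 0.942 and 1.45 in Letmd1 KO mice, without overlap (log2 difference -1.17, exact permutation p = 0.1, adjusted p = 0.117). The ratio of Sirt5 to Sirt3, both mitochondrial, was 0.319, 0.576 and 0.669 against 0.305, 0.413 and 0.329, and overlapped (log2 difference -0.52, exact permutation p = 0.3).

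Of all 7 sirtuin genes, 4 were lower and none higher, but only 3 were lower in 5 of the 6 fits that left out 1 mouse (all but that without Letmd1 KO replicate 3). Besides Sirt3 and Sirt5 these were Sirt4, the remaining mitochondrial sirtuin gene, and the largely cytosolic Sirt2, named here after their values were seen. Sirt4 went from 5.48 ± 0.353 to 2.91 ± 0.890 CPM (adjusted p = 0.0413, edgeR) and Sirt2 from 103 ± 9.79 to 77.8 ± 1.03 CPM (adjusted p = 0.0124, edgeR; SD, n = 3 each). The nuclear Sirt7 had the most positive log2 fold change of the family, 0.27, which did not pass (adjusted p = 0.147, edgeR). The median of the 7 genes was -0.41, against 0.033 for all genes tested, of which 22.3% were lower and 23.7% higher. Library size alone gave 2 lower genes and 1 higher gene around a median of 0.012. The median of all genes was then 0.45, so the sirtuins stayed below it. After quantile normalization 3 were lower. The mitochondrial sirtuins held 33.7%, 37.9% and 39.2% of the sirtuin counts in wild-type and 21.9%, 20.2% and 26.1% in Letmd1 KO mice. These shares do not depend on library scaling, did not overlap, and were computed after the gene values were seen, so no test is given.

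**Figure D2:**
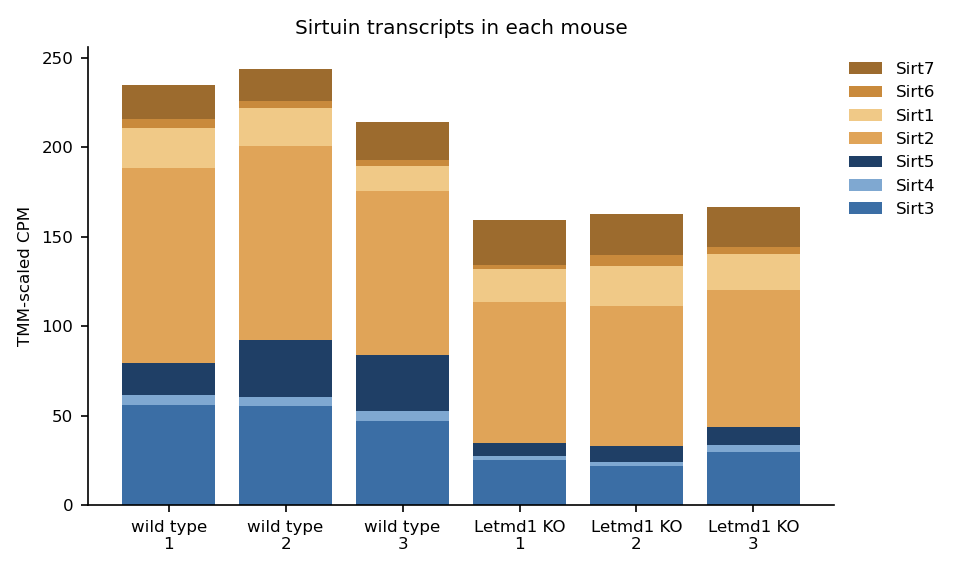
TMM-scaled CPM (y axis, stacked from 0) of the 7 sirtuin genes in each mouse, with the mitochondrial Sirt3, Sirt4 and Sirt5 in blue at the base and the others in brown. The sums lie between 214 and 244 CPM in wild-type and between 160 and 167 CPM in Letmd1 KO mice, and the blue part is smaller in every Letmd1 KO mouse.

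Cd38, at 43868553 to 43912375 of chromosome 5, plus strand, had 8.52, 9.54 and 14.3 CPM in wild-type and 10.7, 12.7 and 11.5 CPM in Letmd1 KO mice. The genotypes overlapped, with a log2 fold change of 0.11 (95% interval from -0.41 to 0.63, adjusted p = 0.724, edgeR) whose sign turned after quantile normalization (-0.11) and without wild-type replicate 1 (-0.043). CD38 is known from immune and endothelial cells. All 10 macrophage markers rose. The 8 endothelial markers went the other way in sum, with between 698 and 775.9 CPM in wild-type and between 456 and 590.1 CPM in Letmd1 KO mice. Of the 8, 3 were lower and none higher (22.3% and 23.7% of all genes tested). Kdr fell most, with means of 208 and 104 CPM, while Pecam1 was at 107 and 109 CPM. Library size alone gave 1 lower and 1 higher (10.5% and 45.4% of all genes). Cd38 was not called, and the part of immune and endothelial cells in its counts was not tested. The ratio of Cd38 to Nampt counts was 0.0181, 0.0177 and 0.0414 in wild-type and 0.0553, 0.0708 and 0.0514 in Letmd1 KO mice, without overlap (log2 difference 1.31, exact permutation p = 0.1, adjusted p = 0.117). Nampt had a log2 fold change of -1.19 and Cd38 of 0.11, so this ratio moved mostly through Nampt. The paralog Bst1, which ends 24567 bases before Cd38 on the same strand, was at 0 counts in all 3 wild-type mice but at 17, 20 and 23 counts in Letmd1 KO mice. Against a floor of 3 counts per library it was at least 5.69-fold higher. Bst1 passed the filter on low counts only through the Letmd1 KO mice, so no test is given. Sarm1, which encodes a further NAD-cleaving enzyme, was too low to be tested.

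Nnmt, which removes nicotinamide, had the most positive change of the 10 genes. It lies on the minus strand of chromosome 9 from 48591877 to 48605153. It had 31.8, 25.2 and 22.8 CPM in wild-type and 52.5, 74.1 and 41.0 CPM in Letmd1 KO mice, with every Letmd1 KO mouse above every wild-type mouse and replicate 2 highest. Its log2 fold change was 1.06 (standard error 0.22, adjusted p = 0.00396, edgeR), and it stayed past the threshold without any 1 mouse, between 0.81 and 1.25. Nnmt is known to be expressed in adipocytes and fibroblasts. The 7 fibroblast and progenitor markers were all higher, and Letmd1 KO replicate 2 was again the highest, while the sum of the 6 general adipocyte markers, most of it Fabp4, was also highest in that mouse among the Letmd1 KO mice, although Pparg was lowest there. The part of these cells in the rise of Nnmt was not tested. Aox1, which oxidizes the methylated product further, was at 35.3 ± 4.03 and 35.8 ± 1.57 CPM (SD, n = 3 each) with a log2 fold change of 0.024 (adjusted p = 0.897, edgeR). The ratio of Nnmt to Nampt counts, clearance against salvage of nicotinamide, was 0.0673, 0.0467 and 0.0657 in wild-type and 0.271, 0.411 and 0.182 in Letmd1 KO mice. It did not overlap, with a log2 difference of 2.21 (exact permutation p = 0.1, adjusted p = 0.117).

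**Figure D3:**
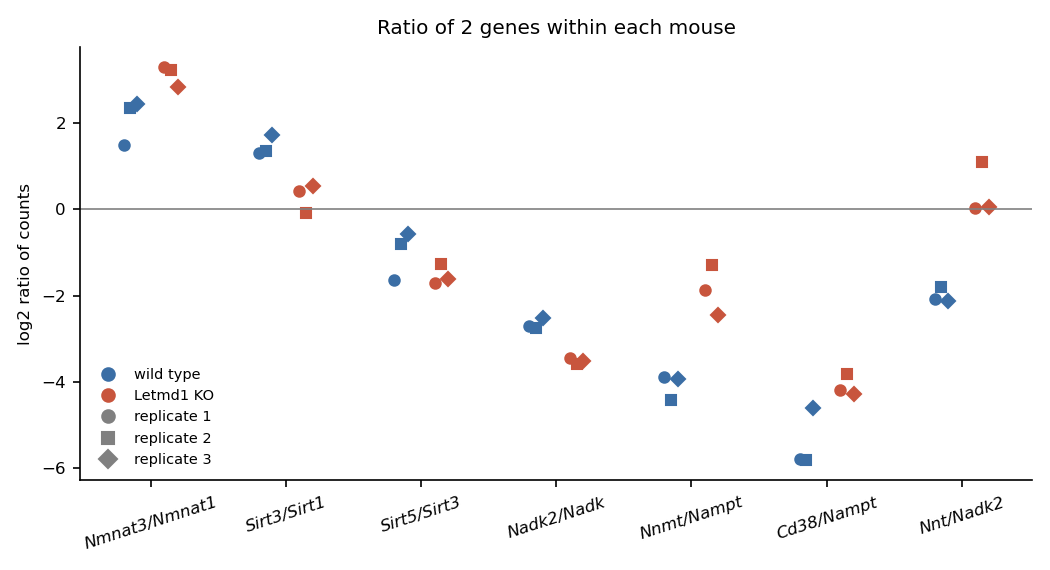
Log2 ratio of the counts of 2 genes within each mouse (y axis) for 7 pairs (x axis), wild type in blue and Letmd1 KO in red, with the marker shape giving the replicate number. The genotypes are apart for 6 pairs and overlap for Sirt5/Sirt3, and Nnt/Nadk2 moves from about -1.995 to 0.39 on average. The share of all gene pairs that are apart was not computed.

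**Figure D4:**
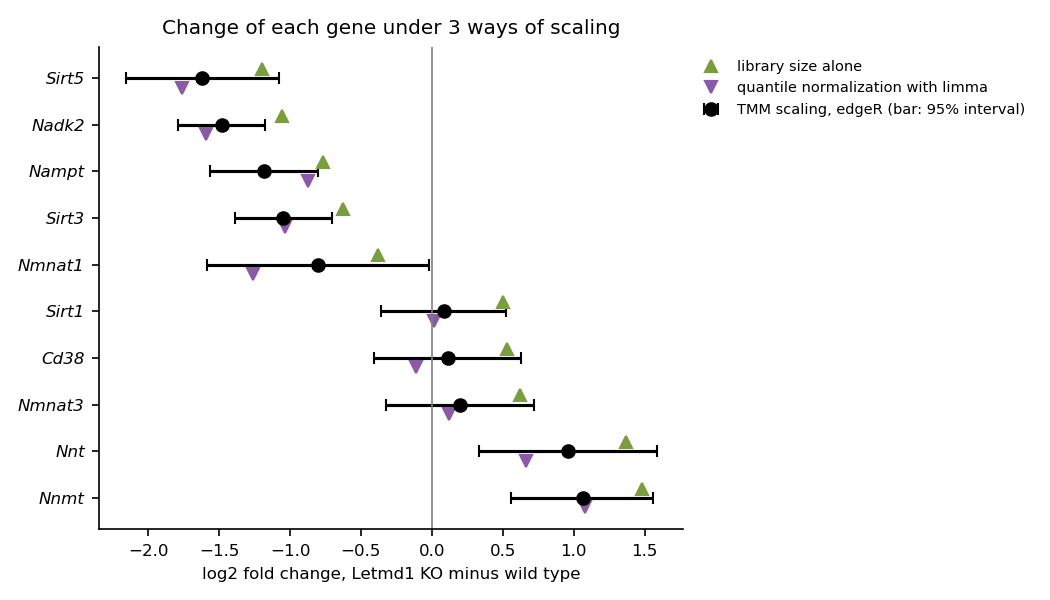
Log2 fold change (x axis, Letmd1 KO minus wild type) of the 10 genes under TMM scaling with its 95% interval (black), library size alone (green) and quantile normalization (purple). Library size alone moves every gene to the right, about as far as it moves the median of all genes (from 0.033 to 0.45), and Cd38 changes sign after quantile normalization.

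The other genes of the pathway were described from lists by role. The background for these lists was 22.3% lower and 23.7% higher among all genes tested, around a median of 0.033. It was 10.5% and 45.4% on library size alone, and 23.7% and 20.9% after quantile normalization. In NAD synthesis and precursor uptake, 11 of 21 genes were high enough to test, 5 were lower and none higher, with a median log2 fold change of -0.76. Leaving out any 1 wild-type mouse made 1 gene higher. By the 3′-end counts, Slc25a51, the mitochondrial NAD carrier, was the most abundant of them and fell most, from 1208 ± 293 to 464 ± 28.6 CPM (SD, n = 3 each; log2 fold change -1.38, adjusted p = 0.00028, edgeR). Besides Nampt, the lower genes were Naprt of the nicotinic acid route (-1.09), the riboside kinase gene Nmrk1 (-0.93) and the nucleoside transporter gene Slc29a1 (-0.76), named after their values were seen. Haao and Nt5e had the most positive values, 1.72 and 0.83. Haao had 2, 7 and 0 counts in wild-type and 12, 9 and 16 in Letmd1 KO mice. Nt5e had 5, 8 and 15 counts in wild-type and 21, 18 and 22 in Letmd1 KO mice. Both passed the filter on low counts only through the Letmd1 KO mice, so no test is given. Library size alone gave 3 lower and 3 higher genes of the 11, around a median of -0.34 against 0.45 for all genes. After quantile normalization 7 were lower and none higher. Most genes of NAD synthesis from tryptophan were not testable, since Kmo, Kynu, Qprt, Ido1, Ido2 and Tdo2 were too low. Acmsd, also on the list, was too low as well.

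Members of the PARP family, the other large group of NAD-consuming enzymes, went both ways, with 3 of 14 lower, 5 higher and a median log2 fold change of 0.36. Tiparp and Parp6 had the most negative changes (-1.19 and -0.76). Parp11 and Parp9 had the most positive (1.36 and 1.26), and Parp9 went from 23.1 ± 2.73 to 55.4 ± 6.46 CPM (SD, n = 3 each; adjusted p = 0.00014, edgeR). Library size alone gave 1 lower and 9 higher genes, beside 10.5% lower and 45.4% higher among all genes.

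Of the 13 genes listed for NADPH production, Nnt among them, 4 were lower and 5 higher (22.3% and 23.7% of all genes tested). Without wild-type replicate 1 the count was 4 lower and 3 higher, and without Letmd1 KO replicate 2 it was 6 lower and 4 higher. The mitochondrial malic enzyme gene Me3 fell most (log2 fold change -1.77), followed by Pgd of the pentose phosphate pathway (-1.33). The mitochondrial folate enzyme genes Aldh1l2 and Mthfd2 rose most. Aldh1l2 went from 0.971 ± 0.398 to 39.8 ± 7.55 CPM and Mthfd2 from 7.07 ± 3.16 to 94.3 ± 19.97 CPM (SD, n = 3 each; log2 fold changes 5.37 and 3.75). Aldh1l2 had only 10, 5 and 10 counts in wild-type and 405, 235 and 745 in Letmd1 KO mice. It passed the filter on low counts only through the Letmd1 KO mice, so its place among the 5 higher genes is no separate support. Mthfd2 lay beyond the log2 fold change of Nnt, 0.96. After quantile normalization 3 of the 13 genes were lower and 3 higher.

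Of 8 tested genes of the shuttles that carry NADH electrons into mitochondria, 5 were lower and 3 higher (22.3% and 23.7% of all genes tested). Both genes of the glycerol phosphate shuttle fell most, Gpd1 from 6299 ± 897 to 756 ± 54.7 CPM and Gpd2 from 3285 ± 217 to 496 ± 46.1 CPM (SD, n = 3 each; log2 fold changes -3.06 and -2.73). The genes of the malate-aspartate shuttle went both ways. Got1 and Slc25a12 had the most positive changes (2.50 and 2.32), and Got2 was higher too (1.37). Mdh1, Slc25a11 and Mdh2 were lower (-1.24, -1.05 and -0.91). Got2 and these lower genes are named after their values were seen.

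All 36 complex I subunit genes tested, whose product is the main acceptor of electrons from NADH, were lower (34 after quantile normalization), and their log2 fold changes ran from -1.94 for Ndufa1 and -1.64 for Ndufb3 to -0.84 for Ndufb10 and -0.82 for Ndufa2, with a median of -1.16. Set beside this range, Sirt5 (-1.62) and Nadk2 (-1.48) lay near its lower end, with 2 and 5 subunits more negative, Sirt3 (-1.05) lay within it, with 26 more negative, and Nampt (-1.19) near its middle, with 16 more negative. The remaining 6 genes lay above all 36, Nmnat1 (-0.80) only just.

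**Figure D5:**
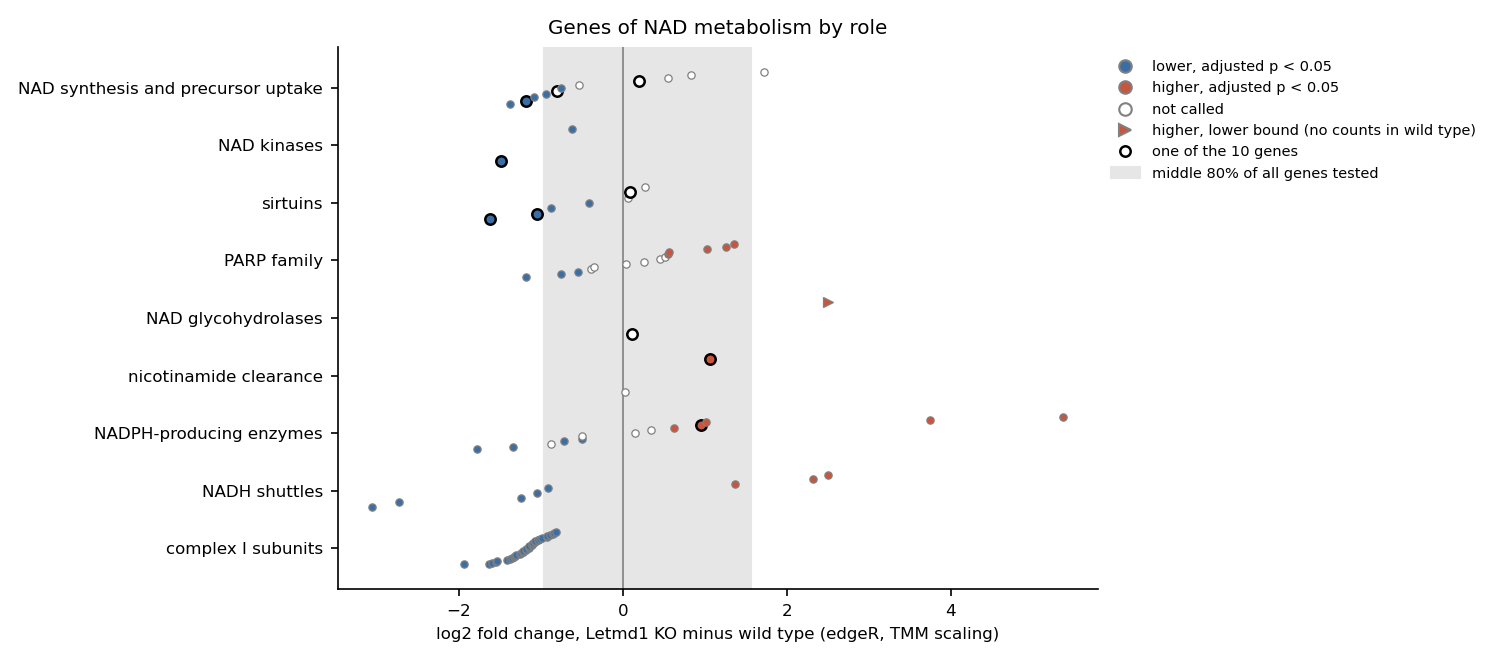
Log2 fold change (x axis, Letmd1 KO minus wild type, edgeR with TMM scaling) of the genes tested in 9 lists (y axis), blue for lower, red for higher and white for not called, with the 10 genes outlined in black and Bst1 drawn as a triangle at its lower bound. The grey band holds the middle 80% of all genes tested. Sirt5, Nadk2, Nampt and Sirt3 lie to its left, and Nnt and Nnmt lie inside it.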

How the data were processed

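QuantSeq 3′ mRNA libraries of BAT from 6 mice, 3 per genotype, were sequenced in single-end reads of 75 bases. The authors used Bowtie2 for alignment and Bedtools for gene counts, in which reads aligned to several places were kept. They deposited these counts for each mouse, without normalization. The submitters' processing notes name the build mm10. The gene annotation, tool versions and use of strand are not given in the sources used here. Nothing ties the mice to litters, and p-values measure the spread between these mice only.

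Counts were tested in R 4.3.3 with edgeR 4.0.16 (quasi-likelihood test, TMM scaling, default filter with a minimum count of 10 and total of 15, Benjamini-Hochberg adjustment, threshold 0.05), with limma 3.58.1 and DESeq2 1.42.0 as alternatives. Standard errors were the absolute log2 fold change over the root of the F statistic. The steps were tested on simulated data in which few genes changed, in both directions. Scaling under changes as broad as those seen here was not checked by it. No 2 mice of a genotype were one library deposited again (chi-square over its degrees of freedom, 11.5 to 34.0). Ratios used counts with 0.5 added and two-sided exact permutation tests. All 10 genes are named. Of each pathway list the 2 lowest and 2 highest log2 fold changes are named, and all genes of lists with fewer than 6 tested. Genes outside this rule are marked. The 10 genes and the lists were chosen with earlier results of these data known. No listed gene was among the 35 symbols on more than 1 row. The alternatives with the Rn45s row left out, with the muscle covariate and with mice left out of the lists were chosen after seeing the data.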

Additional observations from a re-analysis of the deposited data

How the results depend on the processing

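The direction and the call of Nampt, Nadk2, Sirt3, Sirt5 and Nnmt held under every alternative tried: library size alone, DESeq2 size factors, quantile normalization with limma, DESeq2, no filter on low counts, only genes averaging 50 counts, a replicate block, a threshold of 0.01, and each mouse left out, and, chosen after seeing the data, without the ribosomal RNA row Rn45s and with the muscle marker level as a covariate. The number of the 10 genes called was 6 and lay between 5 and 7 throughout. The calls that changed were those of Nnt (also lost at the threshold of 0.01), Nmnat1 and Nmnat3, and the cause was not tested. The sign turned only for genes that were never called: Cd38 after quantile normalization (-0.11) and with mice left out (-0.043 to 0.35), and Sirt1 with the muscle covariate (-0.063) and with mice left out (-0.11 to 0.20). Of all genes tested, 5978 were called, with 3939 at the threshold of 0.01 and 3448 with the muscle covariate. Library size alone called 1 of the NAD kinase genes in place of 2, and 2 genes of nicotinamide clearance in place of 1.

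Whether the replicate numbers pair the mice cannot be settled with 3 mice per genotype. Deviations of mice with the same number correlated at 0.0691, -0.111 and -0.0865 across genes. Those of mice with different numbers correlated at -0.0931 to 0.191. With the replicate block, 6 of the 10 genes and 5599 of all genes were called, and no call among the 10 changed. All 7 within-mouse ratios kept their direction with 5 counts added, with the replicate block (exact sign-flip p = 0.25, the smallest 3 pairs allow) and without any 1 mouse. Nmnat1 rests on 17 to 45 counts per mouse, which limits its precision, and could not be tested with genes averaging 50 counts.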
